A study of Mus musculus with 11 samples.

Results

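The matrix metalloproteinases Mmp2, Mmp3, Mmp9, Mmp10, Mmp13 and Mmp14 and the tissue inhibitors of metalloproteinases Timp1, Timp2, Timp3 and Timp4 were followed across otospheres, cochlear sensory epithelia (CSE) and embryonic stem cells (ESCs). The set was chosen by gene name and holds 10 of the 20284 named genes on the array, namely 6 proteinases and 4 inhibitors, measured by 11 probes. All 11 probes passed the filter on dim signals. Each gene has 1 probe except Timp2, which has 2.

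RNA was measured on 11 single-colour whole-genome arrays of mouse, 6 of otospheres, 3 of CSE and 2 of ESCs. CSE were dissected from newborn ICR mice, 20 cochleae to a preparation, after the spiral ligament and the stria vascularis had been separated off. Otospheres are floating spheres grown from such dissociated epithelia of ICR mice in serum-free medium with bFGF (10 ng/ml), IGF1 (50 ng/ml), heparan sulfate, N2 and B27. They were passaged once, cultured for 4 to 5 days before and after the passage, and strained to enrich solid spheres. The ESCs were 2 lines at passage 13, G4-2 (ES1) and D3 (ES2), grown without feeder cells in serum with LIF, so each line is a single sample. No group carries a genetic change or drug named in the labels.

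Matrix metalloproteinases are zinc-dependent proteinases that cut proteins of the extracellular matrix. Most are secreted as inactive proenzymes, while MMP14 sits in the cell membrane and activates proMMP2 there together with TIMP2. MMP2 and MMP9 are gelatinases, MMP3 and MMP10 are stromelysins, and MMP13 is a collagenase. The TIMPs bind the active enzymes and block them. In the cochlea the matrix includes fibrillar collagens, the basement membrane and the tectorial membrane, and the expression of many metalloproteinase genes in other tissues depends on cytokines and growth factors acting through AP-1 sites near the gene start.

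The labels were checked against marker genes. In the ESC markers, Pou5f1 was at 14.02 and 14.27 (log2 signal) in ESCs and at or below 5.56 in every other sample. All 12 hair cell markers and all 12 supporting cell markers were well above background on all CSE arrays. In otospheres, 10 of 12 hair cell markers and 9 of 12 supporting cell markers were well above background on all arrays, and 1 of each list on none. By the limma test, 9 of the 12 supporting cell markers were lower than in CSE and 0 higher. Of the 12 hair cell markers, 5 were lower and 1 higher. Among all genes, 10.3% were lower and 7.17% higher. Atoh1 was at 4.88 to 7.36 against 8.94 to 9.62 in CSE, and Cdh23 and Prox1 were well above background on no otosphere array. Between 55.1% and 71.6% of spots were well above background on each array and no spot was saturated. Arrays OS1 and OS2 differed by 0.911 times the noise between spots of the same probe, and OS4 and OS5 by 0.417 times, whereas the closest other pair within a group reached 1.65. Each of those pairs was therefore averaged and counted as 1 sample, which left 4 otosphere samples (OS1/OS2, OS3, OS4/OS5 and OS6). Slide 1 carried OS1, OS2, OS3, CSE1, CSE2 and ES1, and slide 2 the rest. OS1 to OS3 thus differ from OS4 to OS6 by slide as well as by sample. P-values measure the spread between these samples, and the labels do not say whether they came from separate cultures.

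Mmp3, Mmp10 and Mmp13 lie in a block of 10 metalloproteinase genes on chromosome 9, which holds no other protein-coding gene. Their upstream sequences are shown because in each of them OS1/OS2 and OS3 lay above OS4/OS5 and OS6. The order below was not shared, since OS6 lay above OS4/OS5 for Mmp10 and below it for Mmp3 and Mmp13. RefSeq promoter windows (build GRCm38.p6) were matched for 8 of the 10 members, and were not matched for Mmp2 and Mmp9. Capitals mark the AP-1 motif TGAGTCA, or TGACTCA where it lies on the opposite strand, and the TATA box motif TATAAA on the gene strand. Each run holds the 250 bases before the gene start on the plus strand, at chr9:7445572-7445821 for Mmp3, chr9:7502092-7502341 for Mmp10, chr9:7272264-7272513 for Mmp13 and chrX:20869916-20870165 for Timp1.
Mmp3: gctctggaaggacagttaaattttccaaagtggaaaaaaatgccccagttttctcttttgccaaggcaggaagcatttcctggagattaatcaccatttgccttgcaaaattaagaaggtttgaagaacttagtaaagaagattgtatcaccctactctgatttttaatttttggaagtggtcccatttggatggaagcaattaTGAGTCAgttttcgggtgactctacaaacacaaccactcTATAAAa
Mmp10: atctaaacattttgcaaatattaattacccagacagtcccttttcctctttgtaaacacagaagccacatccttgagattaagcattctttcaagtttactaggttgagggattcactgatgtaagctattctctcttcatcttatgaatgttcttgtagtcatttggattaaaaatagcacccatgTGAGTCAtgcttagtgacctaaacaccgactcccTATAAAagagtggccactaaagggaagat
Mmp13: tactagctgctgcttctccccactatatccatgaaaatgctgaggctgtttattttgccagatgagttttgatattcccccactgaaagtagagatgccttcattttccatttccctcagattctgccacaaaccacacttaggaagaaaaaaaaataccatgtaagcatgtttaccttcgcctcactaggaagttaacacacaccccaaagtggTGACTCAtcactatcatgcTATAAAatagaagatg
Timp1: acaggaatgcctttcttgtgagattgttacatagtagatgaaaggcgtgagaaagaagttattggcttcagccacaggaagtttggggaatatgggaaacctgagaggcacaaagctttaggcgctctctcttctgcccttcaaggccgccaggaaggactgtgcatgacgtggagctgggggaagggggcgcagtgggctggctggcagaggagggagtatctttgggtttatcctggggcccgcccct
The AP-1 motif began 46 bases before the start of Mmp3, 63 before that of Mmp10 and 35 before that of Mmp13, and a TATA box motif followed it in each. Across 32851 RefSeq windows of the same length, 4.46% held the AP-1 motif and 7.59% the TATA box motif. In these letters, neither motif was in the windows of Mmp14, Timp1, Timp2, Timp3 or Timp4. The windows of the 3 chromosome 9 genes held 37.2% to 40.4% G and C, and those of the other 5 members 53.6% to 68%, against a median of 52.4% over all windows. The 3 genes are neighbours of the same family and were picked by their values, so the shares over all windows are no test of them. The other genes of the block were not read singly. A match is a string of letters, and binding of a factor was not measured.

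**Figure D1:**
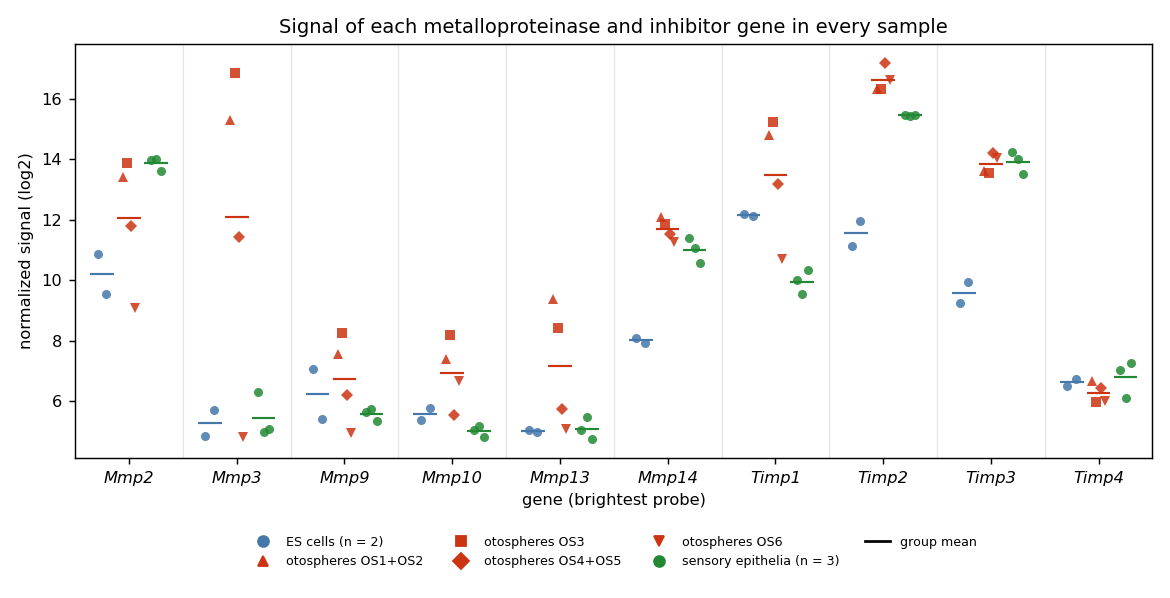
Normalized signal (log2, vertical axis) of the brightest probe of each of the 10 genes (horizontal axis) in 2 ESC, 4 otosphere and 3 CSE samples, with a line at each group mean. The otosphere symbols spread widely for Mmp2, Mmp3, Mmp9, Mmp10, Mmp13 and Timp1, with OS1/OS2 and OS3 at the top and OS4/OS5 and OS6 below, and lie close together for Mmp14, Timp2, Timp3 and Timp4.

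Mmp3, a stromelysin with a wide range of matrix substrates, had the widest spread of the set. Its log2 signal in otospheres was 15.28 in OS1/OS2, 16.84 in OS3, 11.44 in OS4/OS5 and 4.82 in OS6. In CSE it was 6.30, 4.98 and 5.08, and in ESCs 4.86 and 5.73. All otosphere samples but OS6 thus lay above every CSE and ESC sample. OS6 had the lowest measured signal, but was not well above background, so its place among the CSE and ESC samples is one of dim signals. Mmp3 was well above background on 5 of 6 otosphere arrays, on 1 of 3 CSE arrays and on neither ESC array. The mean difference between otospheres and CSE was 6.64 ± 2.41 (log2, SE), with an adjusted p of 0.132 by limma. Without OS6 the difference was 9.07 with an adjusted p of 0.00329. Leaving out any other otosphere or CSE sample gave 5.06 to 7.07, with adjusted p-values of 0.218 to 0.295 by limma. Against ESCs the difference was 6.80 ± 2.73 (log2, SE), which did not pass the threshold (adjusted p = 0.102 by limma). Each ESC array was also set at its measured signal or at its dimmest signal well above background, whichever was higher. The ratio of the means was then at least 97.8-fold. That bound allows for dim ESC signals and not for the spread among otosphere samples, of which OS6 was not above the ESC lines.

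The other stromelysin, Mmp10, was at 7.39, 8.18, 5.54 and 6.67 (log2) in OS1/OS2, OS3, OS4/OS5 and OS6. It was at 5.06, 5.17 and 4.83 in CSE and at 5.37 and 5.78 in ESCs. All 4 otosphere samples lay above the 3 CSE samples, although OS4/OS5 fell between the ESC lines. Mmp10 was well above background on all 6 otosphere arrays and on no CSE or ESC array. The otosphere mean was at least 3.41-fold higher than that of CSE, with the CSE level set as for Mmp3, and the difference of the measured means was 1.92 ± 0.52 (log2, SE, adjusted p = 0.0493 by limma).

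Mmp13, the collagenase of cartilage and bone, was at 9.36 (log2) in OS1/OS2, 8.42 in OS3, 5.76 in OS4/OS5 and 5.08 in OS6. The CSE samples were at 5.06, 5.46 and 4.74 and the ESC lines at 5.05 and 4.97. OS6 lay among the CSE samples and the other otosphere samples above them. The difference between otospheres and CSE was 2.06 ± 0.94 (log2, SE) with an adjusted p of 0.240 by limma.

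The gelatinases differed from each other in where they were found. Mmp2, a gelatinase made widely by connective tissue cells, was at 13.42, 13.86, 11.80 and 9.10 (log2) in the otosphere samples in the same order. It was at 13.99, 14.01 and 13.61 in CSE and at 10.86 and 9.56 in ESCs. The CSE samples lay above both ESC lines, by 3.66 ± 1.2 (log2, SE, adjusted p = 0.0489 by limma), whereas the otosphere samples reached from below ES2 to above CSE3. Mmp9, the other gelatinase, was at 7.56, 8.24, 6.20 and 4.93 in otospheres, at 5.65, 5.73 and 5.36 in CSE, and at 7.06 and 5.42 in ESCs. Its groups overlapped in every comparison and no difference passed the threshold, with adjusted p-values of 0.448, 0.717 and 0.642 by limma. In the table of log2 values that the authors deposited, probes with 10 or more spots, Mmp9 among them, are listed at a median of 0.0994 times their log2 level here, so that table gives Mmp9 differences on another scale (0.11 between otospheres and CSE).

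Mmp14, the membrane-bound activator of proMMP2, had the narrowest otosphere range of the 6 proteinases. Its log2 signal was 12.07, 11.87, 11.52 and 11.25 in the otosphere samples, 11.40, 11.08 and 10.56 in CSE, and 8.10 and 7.91 in ESCs. Both cochlear groups lay above both ESC lines. The otosphere mean was 12.7-fold that of ESCs (adjusted p = 4.51e-05 by limma) and the CSE mean 8.03-fold (adjusted p = 1.71e-04). Otospheres and CSE differed by 0.67 ± 0.26 (log2, SE, adjusted p = 0.163). When the slide was added to the model, the difference was 0.75 (adjusted p = 0.0293). Of 18 alternatives with a test, 2 passed, this one included, and 16 did not, with adjusted p-values up to 0.456 by limma.

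Among the inhibitors, Timp1, an inducible inhibitor, was at 14.79 (log2) in OS1/OS2, 15.21 in OS3, 13.18 in OS4/OS5 and 10.71 in OS6. It was at 9.99, 9.55 and 10.32 in CSE and at 12.19 and 12.11 in ESCs. Every otosphere sample lay above every CSE sample, OS6 by the smallest margin, and OS6 alone lay below the ESC lines. The otosphere mean was 11.5-fold that of CSE (3.52 ± 0.93 log2, SE, adjusted p = 0.0433 by limma). Against ESCs it was 2.50-fold with an adjusted p of 0.410.

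Timp2, the inhibitor that also takes part in proMMP2 activation, was at 16.31, 16.32, 17.18 and 16.60 (log2) in the otosphere samples. It was at 15.46, 15.41 and 15.47 in CSE and at 11.14 and 11.95 in ESCs, so that none of the 3 groups overlapped. The otosphere mean was 2.23-fold that of CSE (adjusted p = 0.0250 by limma) and 33.3-fold that of ESCs (adjusted p = 9.87e-06), and CSE were 14.9-fold above ESCs (adjusted p = 5.06e-05). The dimmer probe of Timp2 gave 2.78-fold, 13.6-fold and 4.90-fold for the same comparisons, so both probes had the same order of groups and differed in size against ESCs.

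Timp3, an inhibitor that binds to the matrix itself, was at 13.62, 13.53, 14.19 and 14.03 (log2) in otospheres, at 14.22, 14.02 and 13.52 in CSE, and at 9.24 and 9.94 in ESCs. Otospheres and CSE overlapped, with a difference of -0.08 ± 0.26 (log2, SE, adjusted p = 0.936 by limma), while they exceeded ESCs by 4.25 (adjusted p = 2.35e-05) and 4.33 (adjusted p = 2.84e-05). Timp4 was between 5.97 and 7.28 in all 9 samples, its groups overlapped and no comparison passed the threshold. In these bulk samples, fewer cells expressing a gene and less RNA per cell cannot be told apart.

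**Figure D2:**
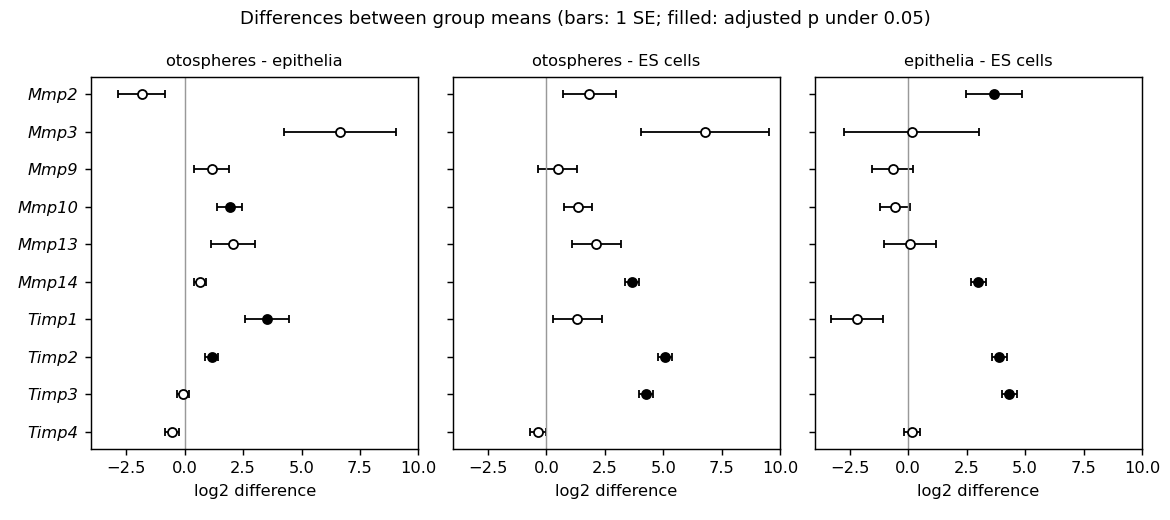
Difference between group means (log2, horizontal axis) for each gene (vertical axis) in the 3 comparisons, with bars of 1 SE from the limma model. Filled points have an adjusted p under 0.05, and the bars are wide for Mmp3 and narrow for Mmp14, Timp2, Timp3 and Timp4.

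Between otospheres and CSE, 3 of the 10 members were higher in otospheres by the limma test (Mmp10, Timp1 and Timp2), where 7.17% of all 18565 genes tested were higher. None was lower, where 10.3% of genes were. At an unadjusted p under 0.05, 5 members were higher, Mmp3 and Mmp14 besides those named, and 0 were lower. The median difference over the members was 1.16 (log2), and over all genes -0.01. The same 3 members were those whose otosphere samples all lay above the CSE samples, as 14.1% of genes did, and 0 members had all otosphere samples below CSE, as 18.9% of genes had. Mmp10 was well above background on otosphere arrays only, so it may have passed the filter on dim probes through otospheres. Its place in these counts carries that limit. Without the filter, the adjusted p by limma was 0.0579 for Mmp10, 0.0520 for Timp1 and 0.0271 for Timp2. The 3 calls lay close to the threshold. Leaving out CSE1, CSE2 or CSE3 left 0 members past it, with adjusted p-values of 0.0728 to 0.0879 for Timp2, 0.109 to 0.130 for Timp1 and 0.104 to 0.159 for Mmp10, at differences of 1.14 to 1.17, 3.32 to 3.70 and 1.83 to 2.00 (log2). Leaving out ES1, ES2, OS1/OS2, OS3 or OS4/OS5 left 1 member each, which was Mmp10 without OS4/OS5 (adjusted p = 0.00800) and Timp2 without the others (adjusted p = 0.0161 to 0.0352). Without OS6, Timp1 (4.44 log2, adjusted p = 0.00153) and Mmp3 passed.

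The size of these differences followed the slide. Within slide 1, otospheres exceeded CSE by 10.4 (log2) for Mmp3, 5.23 for Timp1, 3.63 for Mmp13 and 2.67 for Mmp10. Within slide 2 the same differences were 3.05, 1.62, 0.67 and 1.27. Timp2 differed by 0.88 and 1.43 and Mmp14 by 0.73 and 0.83, while Timp3 changed sign, at -0.55 and 0.59. Mmp2 was lower in otospheres by 0.35 within slide 1 and by 3.16 within slide 2. The slide and the otosphere samples on it cannot be told apart in these values.

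Between otospheres and ESCs, Mmp14, Timp2 and Timp3 were higher in otospheres and no member was lower (limma), where 18.4% of all genes were higher and 20.4% lower. At an unadjusted p under 0.05, Mmp3 and Mmp10 were higher too, and 0 members were lower. The otosphere samples of 4 members lay above both ESC lines, those 3 and Mmp13, as 25.9% of genes did, although for Mmp13 neither OS6 nor either ESC line was well above background, and those of 0 members lay below both, as 28.9% of genes did. The median difference was 1.99 (log2) over the members and -0.01 over all genes. OS6 decided much of this comparison: without it 7 members passed, with Mmp2 at 2.82 (adjusted p = 0.0109), Mmp3 at 9.23 (adjusted p = 0.00175), Mmp13 at 2.83 (adjusted p = 0.0499) and Timp1 at 2.24 (adjusted p = 0.0181) besides the 3 named. Within slide 2, the mean of OS4/OS5 and OS6 was 0.16 below ES2 for Timp1, against 2.81 above ES1 within slide 1.

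Between CSE and ESCs, Mmp2, Mmp14, Timp2 and Timp3 were higher in CSE and no member was lower (limma), where 20.9% of all genes were higher and 20% lower. The count at an unadjusted p under 0.05 was also 4 higher and 0 lower. The CSE samples of these 4 members lay above both ESC lines, as 31.6% of genes did, and those of Timp1 lay below both, as 31.7% of genes did. The signals of Mmp10 ran the same way but were well above background on no CSE or ESC array, so that their order is one of dim signals. Timp1 was at -2.20 ± 1.11 (log2, SE, adjusted p = 0.185), and without OS6 at the same difference with an adjusted p of 0.0184. Leaving out any other otosphere or CSE sample gave Timp1 adjusted p-values of 0.139 to 0.323 by limma. The call of Mmp2 was lost without ES1, ES2, CSE1, CSE2, CSE3, OS1/OS2 or OS4/OS5, with adjusted p-values of 0.0509 to 0.221, and also with an offset of 50 (0.0623), with the processed signal scaled to the 75th percentile (0.0780) and without the filter on dim probes (0.0589). The comparisons share samples, so the lists of members are not independent of each other. Over all 3 groups, 5 of the 10 members passed limma's F-test (Mmp10, Mmp14, Timp1, Timp2 and Timp3), against 48.7% of all genes. For Mmp10, the limit set by the filter on dim probes holds here too.

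Differences among the otosphere samples were a main feature of this gene set. The range over the 4 otosphere samples exceeded 2 (log2) for 6 of the 10 members, where it did for 7.62% of all genes. It was 12.0 in measured signal for Mmp3, the widest of the members. OS6 was the lower end for Mmp3, Mmp9 and Mmp13 and was not well above background for any of these, so these are ranges of measured signal. The ranges of Mmp2, Timp1, Mmp13, Mmp9 and Mmp10 were 4.77, 4.5, 4.28, 3.31 and 2.64, and those of Timp2, Mmp14, Timp4 and Timp3 were 0.88, 0.82, 0.70 and 0.66. Both OS1/OS2 and OS3 lay above both OS4/OS5 and OS6 for 7 members, all 6 proteinases and Timp1, where this was so for 21.7% of genes. The reverse held for Timp2 and Timp3, as for 32.3% of genes. OS6 was the lowest otosphere sample for 6 members, as for 29.4% of genes. These are descriptions of 4 samples on 2 slides and carry no test.

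Of the 10 metalloproteinase genes in the chromosome 9 block, 8 had a kept probe, the 3 members among them. Mmp1a, Mmp1b and Mmp8 were well above background only on arrays of OS1 to OS3, and passed the filter through those arrays, so nothing is read from their order. Mmp7, or matrilysin, which cuts proteoglycans and activates other proenzymes, was at 7.78, 9.07, 6.89 and 5.74 (log2) across OS1/OS2, OS3, OS4/OS5 and OS6. Mmp12, the macrophage elastase, was at 6.06, 6.53, 5.51 and 5.36. In both genes OS1/OS2 and OS3 exceeded OS4/OS5 and OS6, with OS6 not well above background for Mmp12. Mmp20, the enamel metalloproteinase, had no kept probe, and Mmp27 was not analysed here.

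Most connective tissue markers moved with this order and most hair cell markers moved against it. Of 12 mesenchyme markers, 10 were higher in both OS1/OS2 and OS3 than in both OS4/OS5 and OS6, as were 21.7% of all genes. The mean log2 signal of the 12 was 11.58, 12.07, 10.59 and 8.55 in OS1/OS2, OS3, OS4/OS5 and OS6, against 11.72 to 12.20 in CSE and 6.90 to 7.41 in ESCs. Col3a1, a fibrillar collagen chain of connective tissue, was at 13.96, 15.59, 11.82 and 6.51, and Prrx1, a mesenchymal transcription factor, at 9.51, 9.78, 7.90 and 5.05. Lum, a proteoglycan of connective tissue, and Thy1, a surface protein of fibroblasts and other cells, ran the opposite way, Thy1 at 11.64, 11.10, 13.26 and 12.76. Of 12 hair cell markers, 11 were lower in both OS1/OS2 and OS3, as were 32.3% of all genes. The mean of the 12 was 7.69, 7.24, 8.65 and 9.0 in the same order. These orders were not particular to the 2 lists. Of 10 endothelial markers, 6 ran with the mesenchyme markers and 1 against. Of 12 supporting cell markers, 7 ran with the hair cell markers and 3 against. All 12 mesenchyme markers were well above background on every CSE array, so mesenchymal RNA was present in the dissected epithelia as well. The part of these cell types in the values of the metalloproteinases was not tested.

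Markers of the other cells known for Mmp9 and Mmp13 were also read. The mean of 8 osteoclast markers was 8.22, 8.12, 7.40 and 6.93 (log2) in the otosphere samples and 7.53 to 7.78 in CSE. Of the 8, 5 were well above background on every otosphere array and 1, Dcstamp, on none. Ctsk, a collagen-cutting protease also made by fibroblasts, was at 12.95 in OS3 and 5.85 in OS6. The mean of 7 bone and hypertrophic cartilage markers was 7.53, 6.82, 6.72 and 5.21. Of the 7, 0 were well above background on every otosphere array. Only 1 was on none, Col10a1, the defining collagen of hypertrophic cartilage. The mean of 10 macrophage and myeloid markers was 8.28, 8.56, 8.44 and 7.47 in otospheres and 8.22 to 8.48 in CSE. Of the 10, 4 were well above background on every otosphere array and the others on some of them. The pan-leukocyte gene Ptprc was at 5.65 to 5.78 in otospheres. Their part in the levels of Mmp9 and Mmp13 was not tested.

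**Figure D3:**
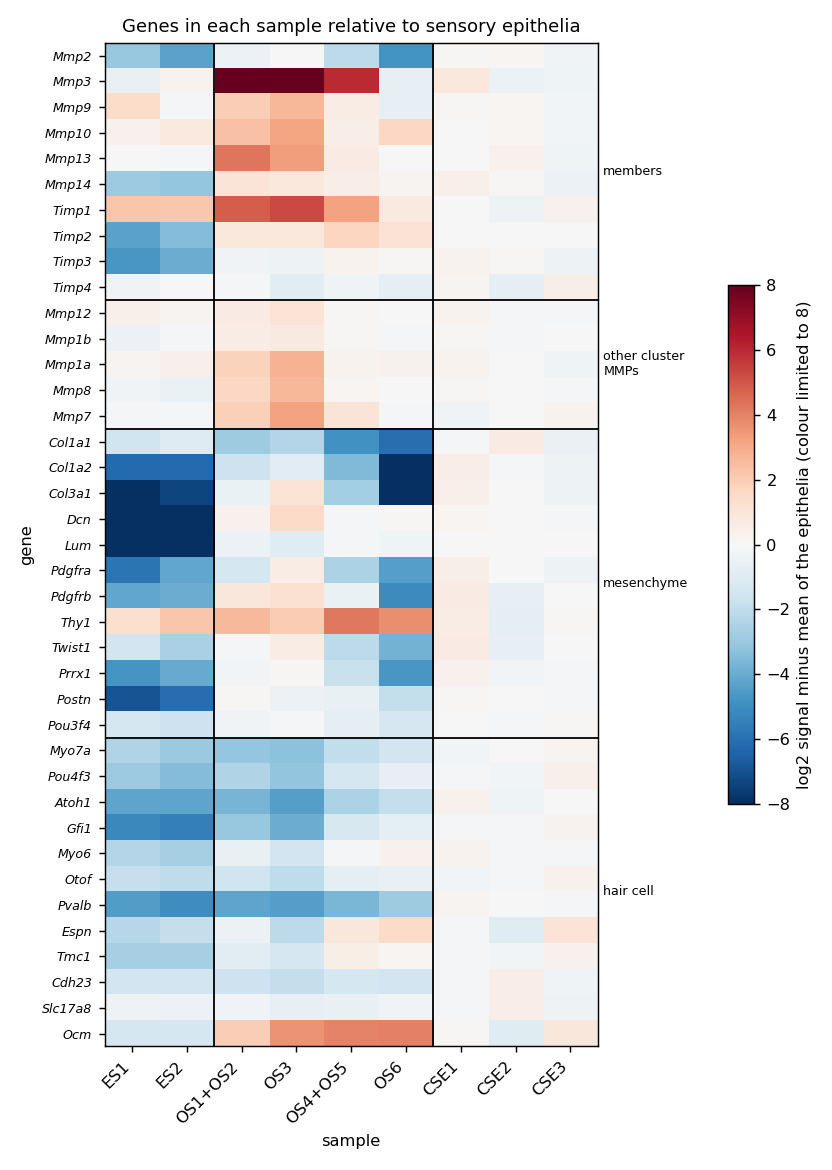
Log2 signal of each gene (rows) in each of the 9 samples (columns) minus the mean of that gene in the 3 CSE samples, with colours limited to 8. The member proteinases other than Mmp14, Timp1, Mmp7, Mmp12 and most mesenchyme markers fade from OS1/OS2 and OS3 to OS4/OS5 and OS6. Most hair cell markers run the opposite way. Nothing is read from the rows of Mmp1a, Mmp1b and Mmp8, which passed the filter through arrays of OS1 to OS3.

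Over the 9 samples, 5 members correlated around Mmp3 and 3 around Timp2, and Mmp2 and Timp4 were in neither set. Mmp3 correlated with Mmp13 (Pearson r = 0.92), Timp1 (0.90), Mmp9 (0.82) and Mmp10 (0.80). Timp2 correlated with Timp3 (0.96) and with Mmp14 (0.95), and Timp3 with Mmp14 (0.94), whereas Mmp3 and Timp3 had an r of 0.30. Mmp2 had its highest r, 0.58, with Mmp14, and Timp4 had an r of 0.20 with Mmp2 and of -0.55 to -0.13 with the others. These values are descriptions over 9 samples in 3 separate groups that share arrays and normalization. Those among Timp2, Timp3 and Mmp14 rest on the gap between ESCs and the cochlear groups. Among the otosphere samples, OS1/OS2 and OS3 lay above OS4/OS5 and OS6 for Mmp14, and below them for Timp2 and Timp3.

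The genes most like the members with the widest range of group means were sought among 18554 genes by Pearson r over the 9 samples. Mmp3 was closest to C1s1 (0.996), Steap4 (0.993) and C1s2 (0.992), where C1s1 and C1s2 encode forms of the complement protease C1s and Steap4 a metalloreductase. C1s1 was at 12.73, 13.30, 10.60 and 8.05 (log2) in the otosphere samples and at 7.82 to 8.71 in CSE. Timp2 was closest to Loxl1 (0.995), which crosslinks elastin, then Pla2g7 (0.994), a secreted phospholipase, and Dctn4 (0.990), a dynactin subunit. Timp3 was closest to Mpc1 (0.997), Ppp3ca (0.995) and Hipk3 (0.994), and Mmp14 to Ppm1h (0.995), Cpe (0.992) and Rhoq (0.990). The correlations of Timp2, Timp3 and Mmp14 rest on the gap between ESCs and the cochlear groups.

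Of the other metalloproteinases, 14 of 17 listed were tested and 2 were higher in otospheres than in CSE, with 0 lower (limma). By the same test, 7.17% of all genes were higher and 10.3% lower. The median difference over the 14 was 1.09 (log2). These include Mmp1a, Mmp1b and Mmp8, which passed the filter through arrays of OS1 to OS3, so no shift is read from this median. Mmp23, a membrane-tethered enzyme, was at 10.96, 10.30, 11.49 and 11.76 in otospheres and at 8.14, 7.93 and 8.23 in CSE, and rose by 3.03 ± 0.37 (log2, SE, adjusted p = 0.00123). Mmp15, a membrane-type enzyme related to Mmp14, rose by 1.29 ± 0.32 (adjusted p = 0.0347). Their otosphere ranges were narrow beside that of Mmp3, with Mmp15 at 10.20, 10.58, 11.05 and 10.44. Mmp11, stromelysin-3, was at 13.33, 14.69, 12.41 and 10.71 in otospheres and 11.14 to 11.75 in CSE, with an adjusted p of 0.390.

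The related ADAM and ADAMTS families hold the sheddases and the aggrecan- and versican-cutting enzymes. Here 3 of 20 genes rose in otospheres over CSE and 1 fell, where 7.17% of all genes rose and 10.3% fell. The median difference was 0.35 (log2). Adam8, a proteinase of leukocytes and activated cells, was at 13.40, 13.48, 12.81 and 11.86 in otospheres and 6.96 to 7.17 in CSE, a rise of 56.6-fold (adjusted p = 1.06e-04 by limma). Adam9 rose by 2.01 (adjusted p = 3.09e-04) and Adamts1 by 1.47 (adjusted p = 0.0439). Adamts9 fell by 1.39 on the log2 scale (adjusted p = 0.0204).

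Of 23 genes that activate, bind or clear metalloproteinases, 7 rose and 4 fell, with a median difference of 0.01 (log2). Among all genes, 7.17% rose and 10.3% fell. Lcn2, whose protein binds MMP9, was at 18.32, 18.07, 18.12 and 13.69 (log2) in otospheres against 9.90, 6.89 and 7.16 in CSE, a rise of 9.07 ± 1.19 (SE, adjusted p = 0.00181 by limma). Plaur, the urokinase receptor, rose by 5.30 (adjusted p = 3.42e-04) and Plau, urokinase, which makes plasmin, was at least 18.6-fold higher (adjusted p = 1.91e-04), with the CSE level set as for Mmp3. Plau was at 8.54, 9.22, 9.61 and 10.06 in otospheres and well above background on no CSE array, so it did not share the order of the secreted metalloproteinases. The proprotein convertases Pcsk6 and Pcsk5 fell by 3.71 (adjusted p = 0.00165) and 2.54 (adjusted p = 1.41e-04) and the membrane serine protease Tmprss6 fell by 2.27 (adjusted p = 0.00608). Furin, the convertase of proMMP14, was at 11.58 to 11.97 in otospheres and 11.34 to 12.05 in CSE.

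Of 19 transcription factors of the AP-1, ETS, RUNX, NF-kB, STAT and C/EBP families, 9 were higher in otospheres than in CSE and 0 lower. Among all genes, 7.17% were higher and 10.3% lower. The median difference over the list was 1.24 (log2). The mean of the list was 9.80, 9.38 and 11.16 in CSE1, CSE2 and CSE3 against 10.78 to 11.36 in otospheres, so CSE3 lay within the otosphere range. Without CSE3, an alternative chosen after seeing the data, 9 were higher, 0 were lower and the median was 1.5. Fosl2, an AP-1 subunit, was at 12.59, 12.34, 13.20 and 13.31 in otospheres and at 8.56, 7.11 and 9.13 in CSE, a rise of 24.2-fold (adjusted p = 6.43e-04 by limma). Cebpb rose 9.81-fold (adjusted p = 9.88e-04) and Fosl1, another AP-1 subunit, 5.59-fold (adjusted p = 2.69e-04). Fos and Jun, AP-1 subunits that respond early to stimulation, did not pass (adjusted p = 0.557 and 0.227), and Fos was at 6.91, 5.57 and 13.84 in CSE1, CSE2 and CSE3. The order of Fosl2 among otosphere samples was the reverse of that of Mmp3.

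Of 11 cytokines tested that are known to induce metalloproteinases or are induced with them, 3 rose and 0 fell. Among all genes, 7.17% rose and 10.3% fell. The median difference over the 11 was 0.73 (log2). Cxcl1, a neutrophil-attracting chemokine, was at 12.87, 13.51, 10.88 and 8.57 in otospheres and at 5.44, 5.28 and 8.07 in CSE, a rise of 36.6-fold (adjusted p = 0.0213 by limma). Its otosphere order was that of Mmp3. Tgfb1 rose by 1.39 (adjusted p = 0.00947) and Lif by 1.05 (adjusted p = 0.0167). Il1b had no kept probe, and Tnf was at 5.54 to 6.21 in otospheres and 5.27 to 6.11 in CSE.

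Of 22 matrix genes whose proteins these enzymes cut, 3 rose and 4 fell, where 7.17% of all genes rose and 10.3% fell. The median difference over the 22 was -0.64 (log2). In this list Lama1, a laminin chain of basement membranes, rose by 2.13 (adjusted p = 0.00414 by limma), and Fn1, fibronectin, rose by 1.33 (adjusted p = 0.0358). Col1a1 fell by 4.01 (adjusted p = 0.0140), Col9a1 by 3.86 (adjusted p = 4.51e-04) and Col2a1 by 3.29 (adjusted p = 0.0366), the last pair being collagens of cartilage and the tectorial membrane. Col2a1 was at 13.48, 12.59, 15.94 and 16.19 in otospheres and 17.62 to 18.03 in CSE, an order opposite to that of Mmp3. Spp1, osteopontin, which MMP3 cuts, was at 16.05, 15.82, 12.52 and 9.43 in otospheres and 8.77 to 11.27 in CSE, with an adjusted p of 0.242.

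**Figure D4:**
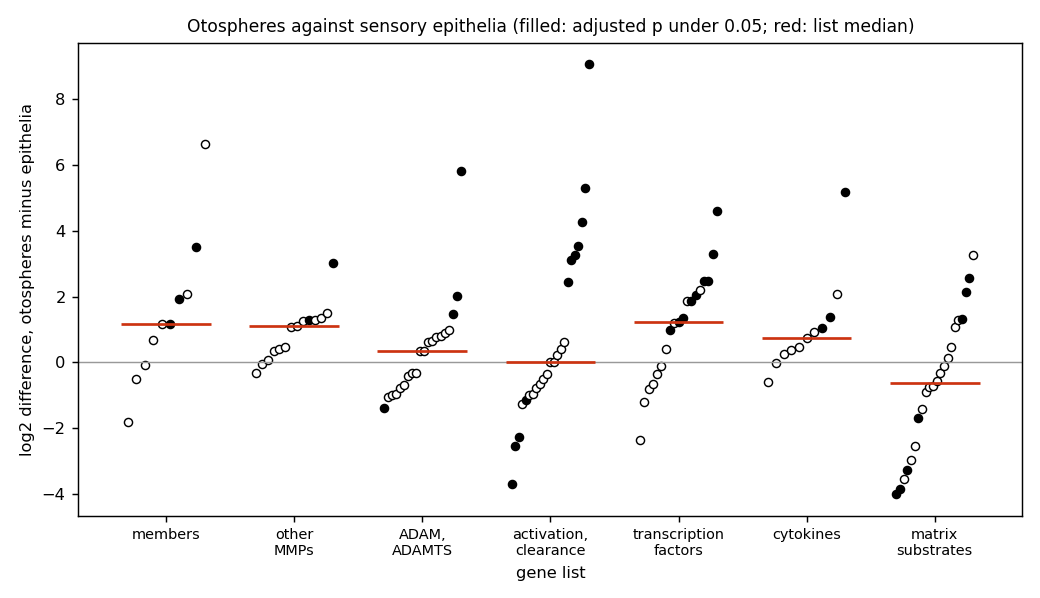
Difference between otospheres and CSE (log2, vertical axis) for each tested gene of the members and of 6 related gene lists (horizontal axis), with filled points at an adjusted p under 0.05 and a red line at each list's median. Filled points lie above 0 for the members, the other metalloproteinases, the transcription factors and the cytokines, and on both sides of 0 for the remaining lists.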

How the data were processed

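The authors deposited scanner files with the median signal intensity and median background intensity of each spot, written by Feature Extraction 10.7.3.1 and not yet normalized, and a table of log2 values that they had background-corrected and quantile-normalized with limma. The scanner files were used. Intensities were background-corrected (normexp, offset 16), converted to log2 and quantile-normalized over 11 arrays with limma 3.58.1 in R 4.3.3, and spots of a probe were averaged. Of 55681 probes, 47997 were kept, those that exceeded the negative control spots (95th percentile of 308) by 10% or more on 2 or more arrays. Names came through RefSeq accessions of GRCm38.p6 (26762 probes), and each of 18565 genes was represented by its brightest kept probe. Each of the 2 near-identical pairs of otosphere arrays was averaged and entered as a single sample. A limma model of 3 group means was fitted to all kept probes and p-values were adjusted over them (Benjamini-Hochberg, threshold 0.05). Which samples had 50 and which 100 ng of RNA labelled is not given in the sources used here. Alternatives changed the offset, scaling, filter, treatment of array pairs, slide, test and samples 1 at a time. The replicate block was fitted with every array as a sample. Steps were tested on simulated data.

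Members, gene lists and tests were chosen with earlier results of these data known. All members with every probe were named. From each related list up to 3 of the largest rises and falls past the threshold between otospheres and CSE were named, with any other metalloproteinase and the defining genes of a marker list. Junb lacks a value in CSE3, an outlying spot. Fos, Jun, Furin, Tnf, Il1b and Spp1 were named after their values were seen. The values of 1 matrix gene are not reported here.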

Additional observations from a re-analysis of the deposited data

How the results depend on the processing

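Otospheres and CSE against ESCs for Mmp14, Timp2 and Timp3 passed the threshold under every alternative with a test. Other counts moved. Members higher in otospheres than in CSE were 3 as reported, 1 with an offset of 50, 1 without the filter on dim probes, 6 with every array as a sample and the replicate number as a block (4 with every array as a sample and no block), and 0 to 2 when 1 sample was left out. Under the F-test they were 5 as reported, 3 with an offset of 50, 3 without the filter, 9 with every array and the replicate block (6 with every array alone), 3 by the methods' one-way analysis of variance, and 3 to 7 with 1 sample left out. Members higher in otospheres than in ESCs were 3 as reported, 8 with every array and the replicate block (4 with every array alone) and 3 to 7 with 1 sample left out. Members lower in CSE than in ESCs were 0 as reported, 1 with every array and the block (Timp1; 0 with every array alone) and 0 to 1 with 1 sample left out. Genes of the related lists lower in otospheres than in CSE were 9 as reported, 5 with the processed signal scaled to the 75th percentile and 5 to 12 with 1 sample left out. Those higher were 27, and 20 to 29 with 1 sample left out. Without CSE3, an alternative chosen after seeing the data for each list, the counts higher and lower were 1 and 0 for other metalloproteinases, 2 and 0 for ADAM and ADAMTS genes, 2 and 0 for cytokines and 1 and 3 for matrix genes. The same replicate number did not mark paired samples: deviations of OS1 and CSE1 correlated at 0.36, OS2 and CSE2 at -0.34, and OS3 and CSE3 at -0.39, and no CSE array correlated best with the otosphere array of its number. No CSE or ESC array has the replicate number of OS4, OS5 or OS6, so the block leaves otosphere differences resting on OS1 to OS3. It also counts the near-identical OS1 and OS2 as separate samples. With the block, otospheres exceeded CSE by 10.3 (log2) for Mmp3, 4.97 for Timp1 and 3.96 for Mmp13, against 10.4, 5.23 and 3.63 within slide 1. The block counts of 6, 8 and 9 are thus not more calls in the same comparison. The fit without ES1 or ES2 assumes that the lone ESC sample varies like the other groups.

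Of 543 single-gene values with a test, 473 kept direction and call, 36 lost the call, 20 gained it and 14 changed sign, none of them called. Timp3 between otospheres and CSE became 0.18 with the processed signal and ranged from -0.28 to 0.073 with 1 sample left out. Mmp3 between CSE and ESCs became -0.023 with the processed signal, -0.45 with the slide in the model and -0.0083 with the replicate block, and ranged from -0.27 to 0.59 with 1 sample left out. Between the same groups Mmp13 became -0.22 with the slide in the model, and leaving out 1 sample gave -0.11 to 0.25 for Mmp13, -1.48 to 0.16 for Mmp9 and -0.074 to 0.52 for Timp4. Mmp9 between otospheres and ESCs ranged from -0.32 to 1.31. The cause was not tested. Mmp3, Mmp8, Mmp10 and Mmp13 were well above background on at most 1 CSE array and on no ESC array, where the offset sets the size of a difference: Mmp10 between otospheres and CSE was 2.65 with an offset of 0 and 1.30 with 50.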
